A study of Mus musculus with 32 samples.

Results

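Fetal prospermatogonia of the second generation (G2R) were set against those of the first (G1R) in the lines that descend from exposure to di-(2-ethylhexyl) phthalate (DEHP), a plasticizer, or to vinclozolin (VZ), a fungicide. The arrays were chosen by sample title: G2R DEHP and G2R VZ males, 3 arrays each, and G1R DEHP and G1R VZ males, 3 arrays each, so that 12 of the 32 arrays of the series entered, 6 of each generation. G2R cells came from OG2xFVB fetuses, whose mothers were OG2 and whose FVB fathers had been exposed in utero, and were themselves never dosed. G1R cells came from fetuses of FVB dams and OG2 sires whose dams received 750 mg/kg DEHP or 100 mg/kg VZ per day by gavage from 12.5 days post coitum (dpc). All fetuses carried the OG2 transgene, in which the Oct4 promoter drives enhanced green fluorescent protein (EGFP), and all cells were taken from male gonads at 17.5 dpc by sorting for EGFP. The same contrast in the oil vehicle line, 3 G2R and 3 G1R arrays, serves as the control. Its values are given for some genes and lists only, and the other counts stand without this check. The cross, the array run and the generation changed together, in the oil line as in the exposed lines, so they cannot be told apart in any value below. The labels do not say whether replicate arrays were from separate litters, so a p-value measures only the spread between these samples. Arrays are read as log2 signals of a bulk sample, where fewer cells of a type and less RNA per cell cannot be told apart.

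Prospermatogonia are the male fetal germ cells that have entered the gonad, stopped dividing and not yet become spermatogonia. They silence transposons through PIWI proteins and their small RNAs (piRNAs), and lay down the sperm pattern of DNA methylation, including paternal imprints, while they are arrested. They keep part of the pluripotency network of primordial germ cells, and Pou5f1, which encodes Oct4, is the gene whose promoter the sort relied on.

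Germ cell markers had high signals in both generations. Signals are log2 values from robust multichip averaging (RMA), which scales the arrays to a common distribution. The germ cell markers Mael, Dazl, Utf1, Ddx4 and Dnmt3l averaged 13.23, 12.43, 11.80, 11.69 and 11.60 on the 6 G2R arrays. On the 6 G1R arrays they averaged 13.17, 12.49, 11.81, 11.73 and 11.72, and none of them passed the test between generations. They are part of a list of 29 markers, of which 8 passed as higher in G2R and 8 as lower, Pou5f1 among the lower. The generations separated on the first principal component of the 12 arrays, which held 34.6% of the variance. G2R arrays lay between 13.12 and 30.46 on it, and G1R arrays between -29.38 and -22.73. G2R VZ 1 was the G2R array nearest to G1R. Generation took 33.7% of the sum of squares over all probes, the treatment 6.35%, their interaction 5.71% and the spread within groups 54.2%.

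**Figure D1:**
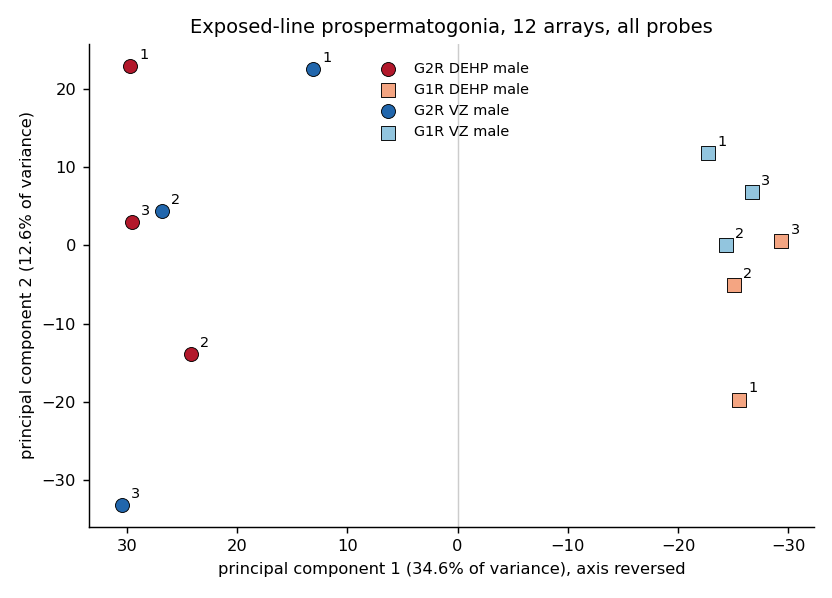
First and second principal components of the 12 arrays (all probes, log2 RMA signal), with each array marked by its group and replicate number. The first axis is drawn reversed, so that the 6 G2R arrays stand on the left (13.12 to 30.46) and the 6 G1R arrays on the right (-29.38 to -22.73), with no overlap.

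Both exposed lines were first tested together, with the mean of the DEHP and VZ differences (G2R minus G1R) as the contrast. Of 35556 probes, 9195 (25.9%) passed an adjusted p of 0.05 in limma, 4370 of them higher in G2R and 4825 lower. Counted over the 19938 genes with a probe of their own, 2523 (12.7%) were higher in G2R and 2830 (14.2%) lower. Most of these differences were small. Among the genes called, 84 were at least 1.5-fold higher and 280 at least 1.5-fold lower, and at least 2-fold changes numbered 9 higher and 19 lower. For 2271 genes (11.4%) the 6 G2R values did not overlap the 6 G1R values, and 2207 of those were called. The count of probes ranged from 7857 to 9146 when single arrays were left out.

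Hsf3, a heat shock transcription factor gene on the X chromosome, fell furthest. Its signal was 6.08, 6.32 and 5.76 on the G2R DEHP arrays, against 8.93, 8.90 and 8.69 on the G1R DEHP arrays, and 6.09, 6.35 and 5.77 on the G2R VZ arrays, against 9.04, 8.64 and 8.66 on the G1R VZ arrays. It averaged 6.06 ± 0.26 in G2R and 8.81 ± 0.17 in G1R (SD, n = 6 each), a fall of 6.72-fold (-2.75 ± 0.14 on the log2 scale, adjusted p = 7.96e-13 in limma). All 6 G2R arrays were below the lowest G1R array, and the G2R mean was under 6.7, the level below which probes were treated as dim. The oil line also fell, averaging 6.44 ± 0.32 in G2R and 8.24 ± 0.42 in G1R (SD, n = 3 each, -1.80 ± 0.20, adjusted p = 4.97e-06).

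Nup62cl, an X-linked gene named for its likeness to a nuclear pore protein, was 3.02-fold lower in G2R. It read 9.43, 10.16 and 10.07 on the G2R DEHP arrays, against 11.57, 11.58 and 11.49 on the G1R DEHP arrays, and 9.87, 9.95 and 10.07 on the G2R VZ arrays, against 11.66, 11.45 and 11.37 on the G1R VZ arrays. The G2R and G1R arrays lay more than a full log2 unit apart, with a difference of -1.59 ± 0.10 (adjusted p = 1.2e-11), while the oil line differed by -0.71 ± 0.14. Aff2, the mouse counterpart of the gene affected in the human FRAXE syndrome, and Nsdhl, a sterol dehydrogenase of cholesterol synthesis, are X-linked as well. Aff2 read 7.08, 7.34 and 7.43 on the G2R arrays (lowest, median and highest), against 8.18, 8.56 and 8.86 on the G1R arrays (-1.26 ± 0.09, adjusted p = 7.51e-10). Mrps21, which encodes a protein of the small mitochondrial ribosomal subunit on chromosome 3, read 9.52, 9.62 and 9.90 on the G2R arrays (lowest, median and highest), against 10.61, 11.80 and 11.99 on the G1R arrays, a 3.7-fold fall (adjusted p = 1.65e-08). G1R DEHP 3 was the G1R array nearest to G2R for Mrps21, at 10.61. The oil line gave -1.80 for Mrps21 (adjusted p = 4.97e-05), beside -1.89 in the exposed lines.

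Oocyte homeobox genes were among those lower in G2R. Nobox, a transcription factor that mouse oocytes need for follicle growth, read 7.13, 7.26 and 7.59 on the G2R arrays (lowest, median and highest), against 8.29, 8.57 and 8.73 on the G1R arrays (-1.22 ± 0.08, adjusted p = 1.05e-10). Obox6, of an oocyte-specific homeobox family, differed by -1.20 ± 0.12 (adjusted p = 3.07e-07) on 1 of its 2 probes. Hoxc8, which patterns the trunk, was 2.37-fold lower at 7.52, 7.83 and 8.17 on the G2R arrays (lowest, median and highest), against 8.94, 9.03 and 9.23 on the G1R arrays. The other genes among the 15 with the largest falls and no overlap were Pcbd1 (a cofactor-recycling enzyme), Scgn (a calcium sensor), Gpx3 (a secreted glutathione peroxidase), Cfap126 (a cilium protein), the deubiquitinase gene Usp17ld, the noncoding Platr8 and the Y-linked Srsy. They lay between -1.23 and -1.05 on the log2 scale. Srsy has 19 probes for near-identical copies that this array cannot separate, of which 10 were called lower.

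Rpl24, a protein of the large ribosomal subunit, read 11.15, 11.48 and 11.85 on the G2R arrays (lowest, median and highest), against 10.22, 10.61 and 10.68 on the G1R arrays, which is 1.9-fold higher in G2R (0.93 ± 0.10, adjusted p = 6.99e-07), and all 3 of its probes were called. Selenoh, a nucleolar selenoprotein, read 9.16, 9.19 and 9.42 on the G2R DEHP arrays, against 8.62, 8.19 and 8.42 on the G1R DEHP arrays, and 9.37, 9.43 and 9.47 on the G2R VZ arrays, against 8.44, 8.47 and 8.57 on the G1R VZ arrays. Every G2R array exceeded every G1R array (0.89 ± 0.09, adjusted p = 1.92e-07). In the oil line Selenoh overlapped between generations, with 9.03, 8.82 and 9.04 on the G2R oil arrays, against 9.15, 8.83 and 8.68 on the G1R oil arrays. Ndufb2, a subunit of respiratory complex I, was 1.93-fold higher, at 7.61, 8.10 and 8.45 on the G2R arrays (lowest, median and highest), against 6.98, 7.05 and 7.45 on the G1R arrays. Fancd2, a protein of DNA crosslink repair, was 1.79-fold higher, at 8.84 to 9.85 (median 9.19) on the G2R arrays and 8.17 to 8.69 (median 8.44) on the G1R arrays. The X-linked Gspt2, a translation termination factor, was 1.79-fold higher, at 8.22 to 8.44 (median 8.36) on the G2R arrays and 7.34 to 7.68 (median 7.47) on the G1R arrays. None of these 3 genes overlapped between generations. Sem1, a small proteasome subunit, differed by 0.81 ± 0.09 and Tmc2, a channel protein known from hair cells, by 1.05 ± 0.15.

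Among genes with no overlap the largest rises belonged to a pair of neighbouring trophoblast genes, Tpbpa (1.16 ± 0.14) and Tpbpb (1.06 ± 0.16), at dim signals. Tpbpa read 5.45, 5.97 and 7.09 on the G2R arrays (lowest, median and highest), against 4.90, 5.01 and 5.12 on the G1R arrays, with no overlap. The oil line rose by 1.26 for Tpbpa and 1.21 for Tpbpb. The remaining leading genes were Ranbp3l, Socs6, Rps12, Dntt and the olfactory receptor genes Olfr767 and Olfr677, between 0.78 and 0.90. Rps12 has 14 probes for near-identical copies, and all 14 were called higher. Olfactory receptor genes were read as a list for background signal. Of 1027, 73 were higher (7.11%) and 29 lower (2.82%), below the 12.7% and 14.2% of all genes. In the oil line 1 was higher and 53 lower, beside 5.95% and 4.87% of all genes. Their median was 0.05 in the exposed lines and -0.16 in the oil line, and the cause was not tested.

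**Figure D2:**
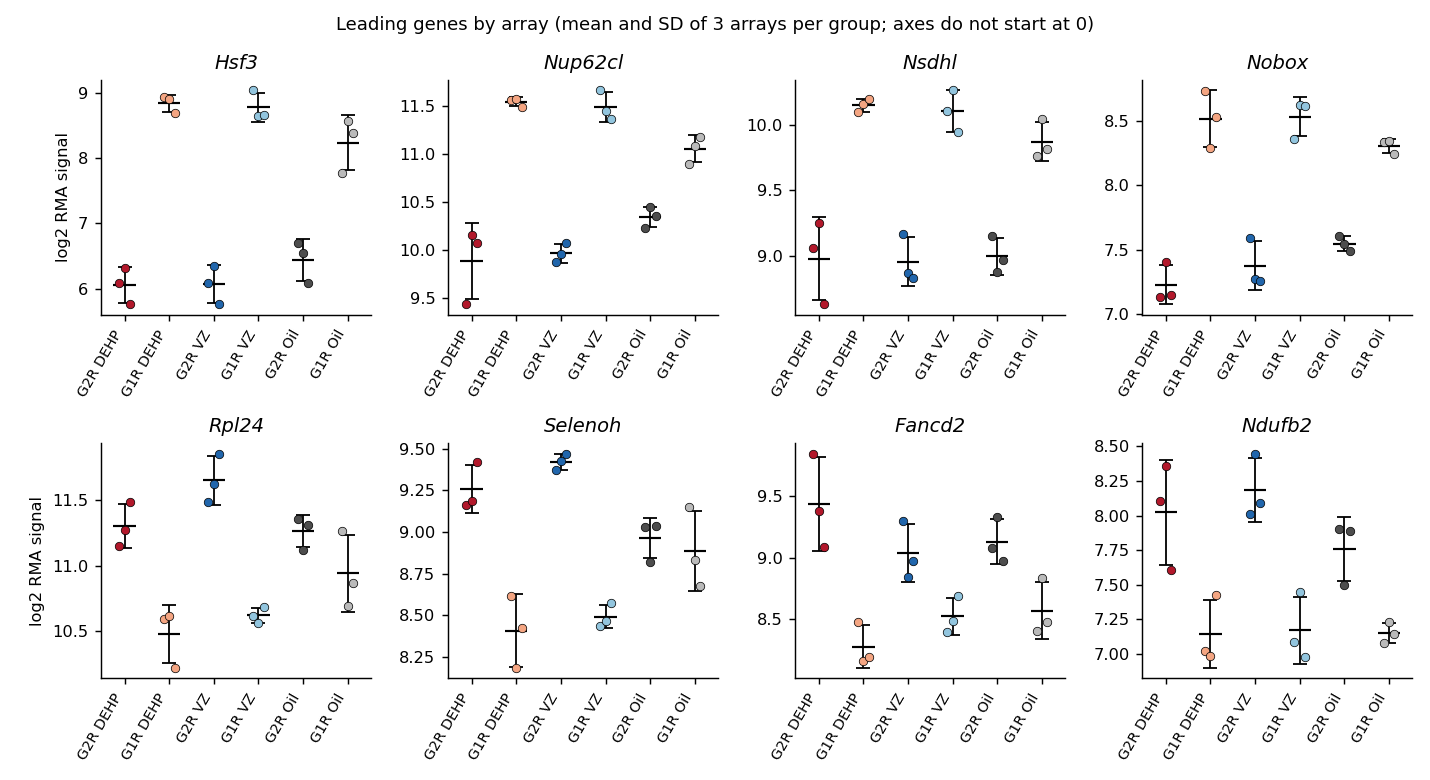
log2 RMA signal of 8 leading genes on each array of the DEHP, VZ and oil lines, with a horizontal bar for the mean of 3 arrays and whiskers for the SD. In both exposed lines the G2R points of all 8 genes stand clear of the G1R points of the same line, with the widest gap for Hsf3, and the oil points overlap between generations for Selenoh and Rpl24.

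A larger share of X-linked than of autosomal genes was called lower in G2R, a description with no test of the shares. Of 739 X-linked genes, 154 (20.8%) were lower in G2R and 48 (6.5%) higher, beside 14% lower and 12.9% higher of 19106 autosomal genes. All 154 had a lower mean in both lines, but the call itself rests on the mean of these 2 lines. No overlap was seen for 75 of them, beside 2207 of the 5353 genes called in either direction. At least 1.5-fold changes numbered 30 lower and 2 higher on the X chromosome, beside 280 lower and 84 higher over all genes. The X chromosome held 4 of the 19 genes that fell at least 2-fold, namely Hsf3, Nup62cl, Aff2 and Nsdhl. Within single lines 13% of X-linked genes were lower in the DEHP line (7.9% of autosomal genes) and 9.61% in the VZ line (5%). In the oil line 5.95% were lower and 5.55% higher, beside 4.8% lower and 5.96% higher of autosomal genes. Of the 154 genes 98 had a negative difference there, and 21 of those passed. Male fetuses have their X chromosome from the mother, OG2 in G2R and FVB in G1R, so strain of the X and generation cannot be told apart. When each array was left out in turn, 135 to 154 X-linked genes were lower and 39 to 55 higher.

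All calls in the piRNA pathway were in 1 direction. Here and below, gene lists are of known function, each list is described by its counts and median, and some members are named after their values were seen. Of the 20 measured piRNA genes, 8 (40%) were higher in G2R and none lower, beside 12.7% and 14.2% of all genes. Their median difference was 0.14, beside 0.01 over all genes, and leaving out single arrays gave 7 to 9 higher. Tdrd12, a tudor protein of piRNA production, read 9.58, 9.77 and 9.85 on the G2R arrays (lowest, median and highest), against 9.10, 9.34 and 9.49 on the G1R arrays (0.42 ± 0.08, adjusted p = 0.000284). Pld6, the mitochondrial nuclease that cuts piRNA precursors, read 8.64 to 8.87 (median 8.74) on the G2R arrays and 8.19 to 8.53 (median 8.36) on the G1R arrays (0.38 ± 0.07, adjusted p = 0.000234). Piwil4, the nuclear PIWI protein of fetal germ cells, differed by 0.36 ± 0.07 (adjusted p = 0.000383), Tdrd9 by 0.32 ± 0.06, Tdrd7 by 0.32 ± 0.06, Tdrkh by 0.26 ± 0.06 and Asz1 by 0.28 ± 0.08. Tdrd9 had no overlap, at 10.95 to 11.07 (median 11.01) on the G2R arrays and 10.61 to 10.78 (median 10.67) on the G1R arrays. The eighth call, Piwil2 (0.16 ± 0.05, adjusted p = 0.0218), missed the test without G1R DEHP 1, G1R VZ 1 or G2R VZ 1 (adjusted p up to 0.0659). In the oil line 4 of the 20 were higher and none lower, beside 5.95% and 4.87% of all genes, with a median of 0.17.

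Among the 29 prospermatogonia markers 8 were higher and 8 lower, 27.6% each, beside 12.7% higher and 14.2% lower over all genes. Pou5f1 read 10.03, 10.33 and 10.47 on the G2R arrays (lowest, median and highest), against 10.78, 11.06 and 11.32 on the G1R arrays, 1.71-fold lower in G2R with no overlap (-0.77 ± 0.21, adjusted p = 0.00771). The oil line gave -0.40 (adjusted p = 0.405). Among the other lower members, the transcription factor gene Zbtb16 differed by -0.41 ± 0.09, the growth factor receptor gene Gfra1 by -0.31 ± 0.07 and the transcription factor gene Etv5 by -0.31 ± 0.07. The germ cell surface protein gene Tex101 read 10.56, 10.65 and 10.86 on the G2R arrays (lowest, median and highest), against 10.10, 10.19 and 10.29 on the G1R arrays (0.47 ± 0.06, adjusted p = 5.87e-06). Dppa4 (0.46 ± 0.09), Tex19.1 (0.41 ± 0.09) and the RNA-binding protein gene Nanos3 (0.33 ± 0.08) were higher as well, each with no overlap. None of the 29 was called in the oil line, beside 5.95% higher and 4.87% lower of all genes. Of 20 pluripotency genes 2 were higher (Klf4 and Dppa4) and 3 lower (Pou5f1, Sox2 and Dppa2), which at 10% and 15% is near the share over all genes. Sox2 differed by -0.60 ± 0.11 and Dppa2 by -0.48 ± 0.07.

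Of 28 meiosis and oocyte genes 8 were lower (28.6%, beside 14.2% over all genes) and 4 higher (14.3%, beside 12.7%). Beside Nobox, the synaptonemal complex genes Syce2 and Sycp3 and the egg coat gene Zp3 were lower. Syce2 read 8.74, 8.98 and 9.21 on the G2R arrays (lowest, median and highest), against 9.75, 9.87 and 10.05 on the G1R arrays (-0.87 ± 0.08, adjusted p = 3.3e-08), Sycp3 differed by -0.63 ± 0.13 and Zp3 by -0.83 ± 0.11. Ythdc2, an RNA helicase required for meiosis in the mouse, rose by 0.49 ± 0.08 and Sohlh1, a germ cell transcription factor, by 0.41 ± 0.07.

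Of 19 DNA methylation genes 5 were higher (26.3%, beside 12.7% over all genes) and 2 lower (10.5%, beside 14.2%). Dppa3, which shields methylation in the early embryo, read 7.04 to 7.80 (median 7.30) on the G2R arrays and 6.68 to 6.99 (median 6.86) on the G1R arrays (0.53 ± 0.15, adjusted p = 0.00864), and Ctcf (0.32 ± 0.07) and Tet3 (0.30 ± 0.08) were also higher. Zfp57, which keeps imprints methylated, differed by -0.54 ± 0.14 (adjusted p = 0.00573) and Zbtb33, a reader of methylated DNA, by -0.42 ± 0.07. Of 39 histone methylation genes, 4 were higher and 8 lower, 10.3% and 20.5%, near the shares over all genes (4 lower without G2R DEHP 1, 5 without G1R VZ 2 or G2R VZ 3), and subunits of Polycomb repressive complex 2 were called in both directions. Eed read 10.76, 10.82 and 10.90 on the G2R arrays (lowest, median and highest), against 9.86, 10.22 and 10.36 on the G1R arrays (0.64 ± 0.08, adjusted p = 4.08e-06) and Suz12 was higher by 0.29 ± 0.06. The catalytic subunit gene Ezh2 differed by -0.26 ± 0.06 (adjusted p = 0.00432). In the oil line Eed differed by 0.57, Suz12 by 0.44 and Ezh2 by 0.13.

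Of 58 imprinted genes 8 were higher and 12 lower, 13.8% and 20.7%, beside 12.7% and 14.2% over all genes, so the higher share is near that of all genes. Mest, expressed from the paternal allele, read 9.38, 9.70 and 9.85 on the G2R arrays (lowest, median and highest), against 10.40, 10.62 and 11.05 on the G1R arrays, 1.95-fold lower (-0.96 ± 0.14, adjusted p = 2.41e-05). The maternally expressed neighbours Phlda2 (-0.82 ± 0.09) and Cdkn1c (-0.68 ± 0.07), growth restrainers of chromosome 7, and Slc22a2 (-0.83 ± 0.09), an organic cation transporter, were lower with no overlap. Igf2r, which clears insulin-like growth factor, was higher by 0.33 ± 0.06 and Bcl2l1, a survival gene, by 0.43 ± 0.06. The arrays do not separate parental alleles.

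Cytosolic ribosomal protein genes were called higher in 22 and lower in 5 of 61 cases (36.1% and 8.2%, beside 12.7% and 14.2% over all genes), with a median of 0.13 in the exposed lines and 0.08 in the oil line. The mean signal of the list lay between 11.40 and 11.59 on the G2R arrays and between 11.27 and 11.38 on the G1R arrays, without overlap. After Rpl24 came Rps12 and Rps3a1 (0.68 ± 0.08), Rps9 (0.65 ± 0.07) and Rpl7 (0.60 ± 0.07). Rps9 read 10.82, 11.01 and 11.07 on the G2R arrays (lowest, median and highest), against 10.16, 10.34 and 10.46 on the G1R arrays. Rpl29 (-0.31 ± 0.06) and the X-linked Rpl10 (-0.27 ± 0.06) went the other way, both with no overlap. Processed copies of these genes are many in the mouse genome and can share probe sequence, so single members are uncertain. The oil line called 7 higher and none lower, beside 5.95% and 4.87% of all genes.

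Nuclear genes of oxidative phosphorylation were split, 18 higher and 17 lower of 82, or 22% and 20.7%, beside 12.7% and 14.2% over all genes (11 lower without G1R DEHP 1 or G2R VZ 2, 10 without G2R DEHP 3). Ndufb2, Atp5mpl (0.73 ± 0.08, a small subunit of ATP synthase) and Cox7a2l (0.66 ± 0.09, a supercomplex assembly factor) led the higher members, with Atp5l at 0.63 ± 0.10. Atp5d, of the ATP synthase central stalk, was lower, at 12.22 to 12.66 (median 12.52) on the G2R arrays and 12.85 to 12.94 (median 12.92) on the G1R arrays (-0.42 ± 0.07). Mitochondrial ribosomal protein genes were higher in 18 and lower in 9 of 77 cases (23.4% and 11.7%), Mrps21 being the lowest and Mrps31 (0.56 ± 0.08) and Mrps9 (0.54 ± 0.06) among the higher ones.

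**Figure D3:**
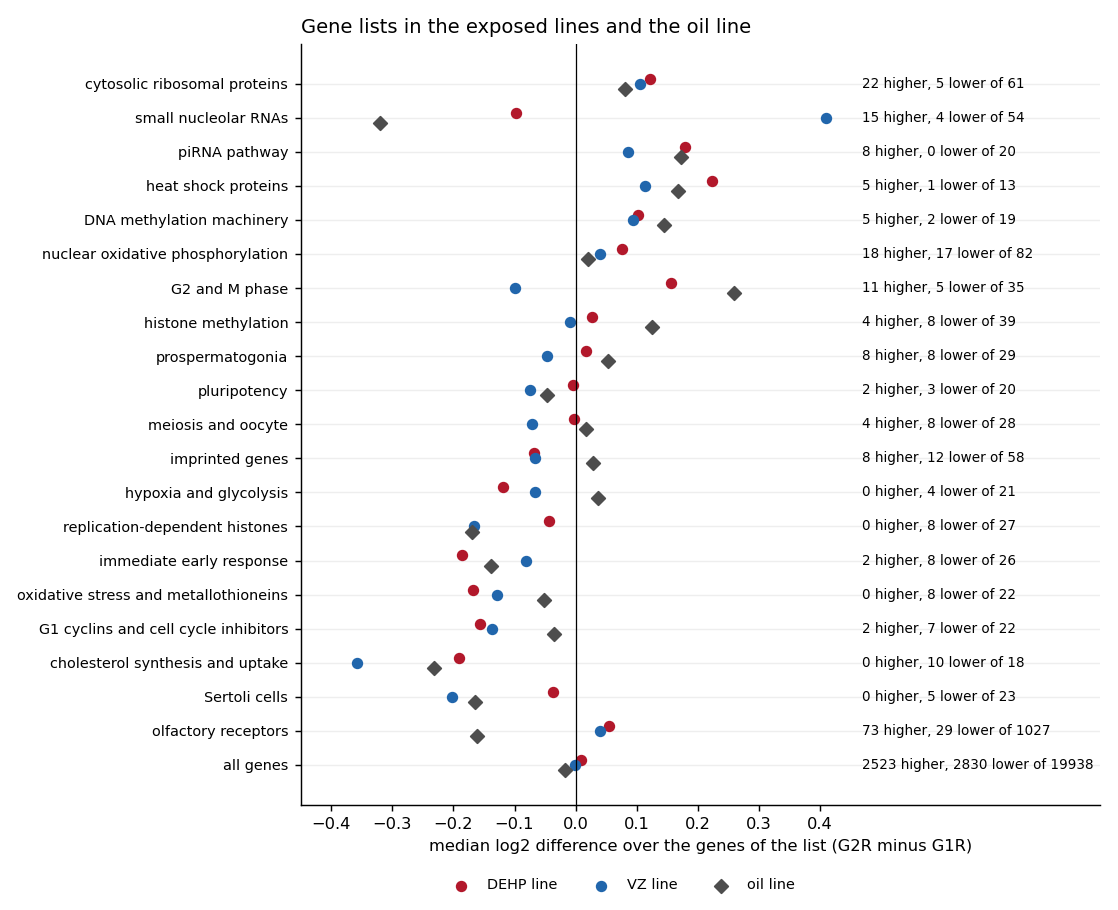
Median log2 difference (G2R minus G1R) of the members of 20 gene lists and of all genes, with a red point for the DEHP line, a blue point for the VZ line and a grey diamond for the oil line, and on the right the members called in both exposed lines together. Cholesterol synthesis lies left of 0 and cytosolic ribosomal proteins and the piRNA pathway right of 0 in all 3 lines, while the small nucleolar RNA medians stand at -0.10 in the DEHP line, 0.41 in the VZ line and -0.32 in the oil line.

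The calls among cholesterol synthesis and uptake genes were all downward. Of 18 measured members 10 (55.6%) were lower in G2R and none higher, beside 14.2% and 12.7% of all genes. No overlap was seen for 6 of the 10, beside 2207 of the 5353 genes called in either direction. The median difference was -0.23 beside 0.01 over all genes. Leaving out single arrays gave 9 or 10 lower. Nsdhl read 9.06, 9.25 and 8.63 on the G2R DEHP arrays, against 10.10, 10.16 and 10.20 on the G1R DEHP arrays, and 9.17, 8.87 and 8.83 on the G2R VZ arrays, against 10.11, 10.27 and 9.95 on the G1R VZ arrays, a 2.24-fold fall (-1.16 ± 0.09, adjusted p = 9.74e-10). Idi1, the isomerase that makes dimethylallyl diphosphate, read 8.79, 9.07 and 9.37 on the G2R arrays (lowest, median and highest), against 9.58, 9.67 and 10.08 on the G1R arrays (-0.64 ± 0.11, adjusted p = 0.000177). Msmo1, the sterol C4-methyl oxidase that acts beside Nsdhl, read 9.34 to 9.75 (median 9.54) on the G2R arrays and 9.77 to 10.48 (median 10.05) on the G1R arrays (-0.56 ± 0.09, adjusted p = 3.59e-05). Srebf2, the transcription factor that drives the whole pathway, read 10.34 to 10.50 (median 10.38) on the G2R arrays and 10.66 to 10.89 (median 10.74) on the G1R arrays (-0.36 ± 0.05, adjusted p = 8.9e-06). Hmgcs1, at the entry of the mevalonate branch, differed by -0.41 ± 0.08, Mvk, mevalonate kinase, by -0.39 ± 0.07, the cyclase gene Lss by -0.47 ± 0.10, Fdps by -0.41 ± 0.10 and the epoxidase gene Sqle by -0.28 ± 0.06. The call of Fdft1 (-0.17 ± 0.06, adjusted p = 0.0448) was lost when any of 9 single arrays was left out (adjusted p up to 0.114), the exceptions being G1R VZ 3, G2R DEHP 1 and G2R VZ 3. In the DEHP line 6 of the 18 were lower, beside 8.08% of all genes, and in the VZ line 10, beside 5.16%. The oil line had 4 lower and none higher, beside 4.87% lower and 5.95% higher of all genes, and a median of -0.23.

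The upstream sequences of the cholesterol genes, lower or not, were searched on both strands for the box CCAAT, bound by the factor NF-Y. This box reads ATTGG when it lies on the other strand. The sterol regulatory element TCACNCCAC (GTGGNGTGA), where N is any base, was searched for as well. The motifs did not overlap each other in the windows shown. RefSeq windows of GRCm38.p6, from 250 bases before to 50 after the start, were at hand for 15 of the 18 genes and for 7 of the 10 that were lower. CCAAT was found for 15 of the 15 genes, the members not called lower included, counting a gene with a match in any of its windows. Counted by window, 37.4% of all 32851 windows of the same length held it. The sterol element was found in Hmgcs1 alone, against 1.24% of all windows. A match is a description of letters and not a bound site. The windows of Nsdhl (chrX:72918271-72918570, plus strand), which fell furthest, of Hmgcs1 (chr13:119690101-119690400, plus strand), which holds both motifs, and of Idi1 (chr13:8885356-8885655, plus strand), the second largest fall, are shown 5′ to 3′ with the matches in capitals.
Nsdhl: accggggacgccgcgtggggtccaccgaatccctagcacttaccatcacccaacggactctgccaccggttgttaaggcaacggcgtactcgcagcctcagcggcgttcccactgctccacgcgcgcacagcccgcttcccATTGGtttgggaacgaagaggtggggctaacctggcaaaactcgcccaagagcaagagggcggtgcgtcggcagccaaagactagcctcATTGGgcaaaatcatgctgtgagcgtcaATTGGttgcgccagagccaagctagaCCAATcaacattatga
Hmgcs1: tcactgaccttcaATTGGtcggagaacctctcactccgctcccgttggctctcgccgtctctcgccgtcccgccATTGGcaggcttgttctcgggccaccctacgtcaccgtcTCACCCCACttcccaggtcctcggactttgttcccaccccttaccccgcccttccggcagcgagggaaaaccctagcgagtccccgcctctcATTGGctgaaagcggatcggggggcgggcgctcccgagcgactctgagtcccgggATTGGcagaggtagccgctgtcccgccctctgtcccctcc
Idi1: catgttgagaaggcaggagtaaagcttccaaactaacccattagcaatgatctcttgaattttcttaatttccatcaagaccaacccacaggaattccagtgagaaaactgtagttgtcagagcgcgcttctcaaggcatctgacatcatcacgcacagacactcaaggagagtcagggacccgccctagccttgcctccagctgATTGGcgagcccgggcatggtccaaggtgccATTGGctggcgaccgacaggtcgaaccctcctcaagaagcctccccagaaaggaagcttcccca
Nsdhl has 4 CCAAT matches, the most distal 109 bases before the start. Hmgcs1 has 4 as well and its sterol element begins 137 bases before the start, between the second and the third CCAAT match. Idi1 has 2, at 45 and 14 bases before the start.

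**Figure D4:**
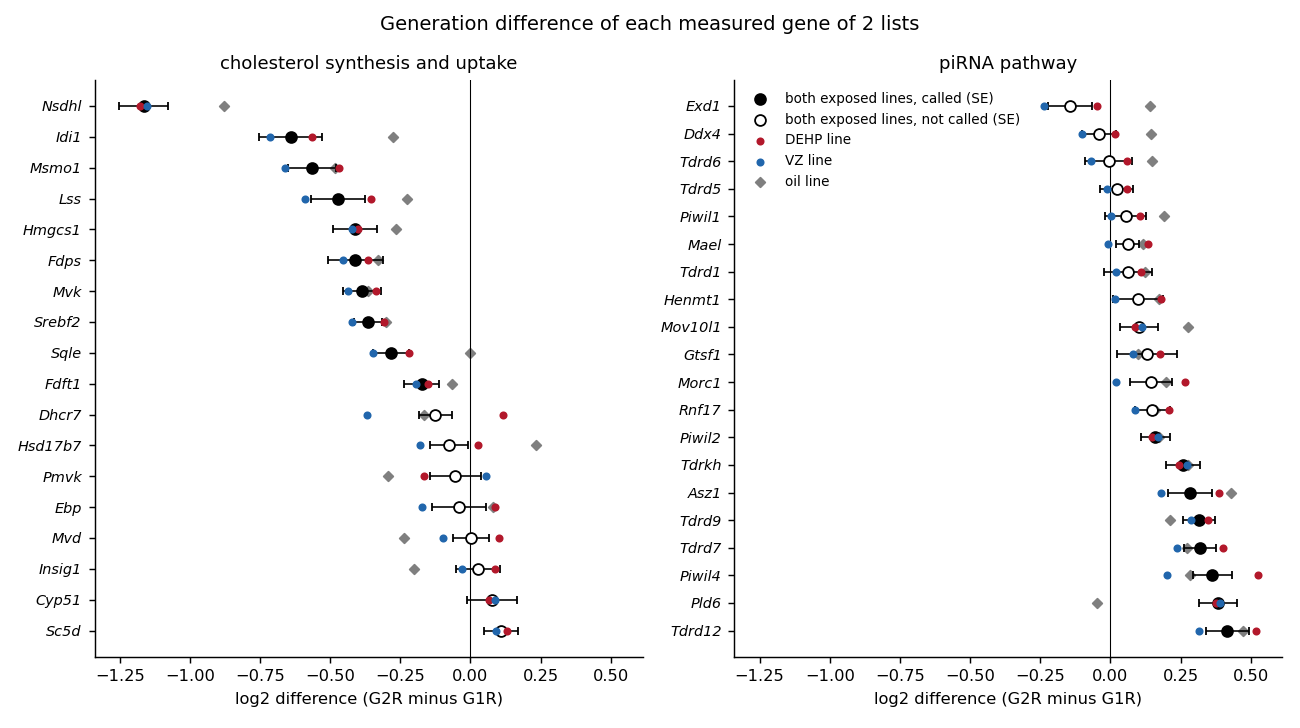
log2 difference (G2R minus G1R) of each measured gene of cholesterol synthesis (left, 18 genes) and of the piRNA pathway (right, 20 genes), with black circles and SE bars for both exposed lines together (filled where called), red and blue points for the DEHP and VZ lines and grey diamonds for the oil line. All 10 filled circles on the left lie below 0 and all 8 on the right above it.

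Shares of called genes in the stress lists stand beside 12.7% higher and 14.2% lower over all genes. Of 22 oxidative stress and metallothionein genes 8 (36.4%) were lower and none higher, and 5 were lower without G1R DEHP 3 or G2R DEHP 3. Sod1, the cytosolic superoxide dismutase, read 11.21, 11.34 and 11.59 on the G2R arrays (lowest, median and highest), against 11.66, 11.81 and 11.98 on the G1R arrays (-0.43 ± 0.07, adjusted p = 0.000106). Gsta4, which conjugates lipid peroxidation products, differed by -0.59 ± 0.11, the stress regulator gene Nfe2l2 by -0.39 ± 0.09 and the metallothionein genes Mt2 and Mt1 by -0.33 ± 0.09 and -0.28 ± 0.08. Of 26 immediate early genes 8 were lower (30.8%) and 2 higher (7.69%), but the count lower was 3 without G2R DEHP 1, 4 without G1R DEHP 2, and 5 without G1R DEHP 3, G1R VZ 2, G2R VZ 2 or G2R VZ 3. Zfp36, which marks messenger RNAs for decay, read 7.75 to 8.15 (median 8.04) on the G2R arrays and 8.62 to 8.94 (median 8.80) on the G1R arrays (-0.80 ± 0.13, adjusted p = 5.75e-05). Hspb1, a small heat shock protein, differed by -0.78 ± 0.11 (adjusted p = 1.36e-05), while 5 of 13 heat shock genes (38.5%) were higher, among them Hspa4l (0.32 ± 0.06) and Hsp90aa1 (0.22 ± 0.04). Ldha (-0.50 ± 0.08), Aldoa (-0.42 ± 0.09) and Tpi1 (-0.47 ± 0.11), all of glycolysis, were lower among 21 hypoxia and glycolysis genes, of which 4 (19%) were lower and none higher.

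Cell cycle lists are read against the same 12.7% higher and 14.2% lower. Among 22 G1 cyclins and inhibitors 7 were lower (31.8%) and 2 higher (9.09%). Cdkn1c, the inhibitor p57, read 8.65, 9.02 and 9.28 on the G2R arrays (lowest, median and highest), against 9.55, 9.67 and 9.77 on the G1R arrays (-0.68 ± 0.07, adjusted p = 2.37e-07) and the transcription factor gene E2f3 differed by -0.61 ± 0.09. Among 35 G2 and M phase genes 11 were higher (31.4%) and 5 lower (14.3%). The kinetochore gene Ndc80 (0.65 ± 0.10), the checkpoint kinase gene Bub1 (0.60 ± 0.08) and the cytokinesis gene Anln (0.58 ± 0.07) were higher, and Anln read 10.62, 10.81 and 11.01 on the G2R arrays (lowest, median and highest), against 9.85, 10.28 and 10.40 on the G1R arrays. Ube2c (-0.43 ± 0.09), Nusap1 (-0.30 ± 0.07), Ect2 (-0.30 ± 0.07) and the condensin gene Smc4 (-0.28 ± 0.06) were lower. In the DEHP line 13 of the 35 were higher and 0 lower, beside 7.4% and 8.08% of all genes. In the VZ line 2 were higher and 5 lower, beside 2.81% and 5.16%. In the oil line 11 were higher and 0 lower, beside 5.95% and 4.87%. The list as a whole was not tested between lines. Of 27 replication-dependent histone genes 8 (29.6%) were lower and none higher, though 2 were higher without G1R DEHP 1 or G1R VZ 1, 1 without G2R DEHP 1 and 3 without G2R VZ 1. They were led by H2bc14 (-0.91 ± 0.15) and H2bc1 (-0.85 ± 0.13). Those of DNA replication were higher in 7 and lower in 5 of 39 cases (3 lower without G1R VZ 1), which at 17.9% and 12.8% is near the shares over all genes, with Fen1 at 0.49 ± 0.07 and Rpa3 at -0.76 ± 0.12.

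MicroRNA genes were read on the array as precursors, and the mature form was not measured. Of 300 precursors 26 were higher and 22 lower (8.67% and 7.33%), below the 12.7% and 14.2% of all genes, and 16 and 12 of those had a mean signal above 6.7. The count higher was 41 without G2R DEHP 2, and the count lower was 14 without G1R DEHP 2 or G1R VZ 3. The oil line went otherwise, with 1 precursor higher and 36 lower, beside 5.95% and 4.87% of all genes. The median of the precursors was 0.03 in the exposed lines and -0.16 in the oil line. Mir423 differed by -0.47 ± 0.08 (adjusted p = 0.000104) and Mir296 by 0.37 ± 0.07 (adjusted p = 0.000234). Precursors that share a seed, bases 2 to 8 of the mature strand, which pair with target messenger RNAs, did not always move together. These sequences are from RefSeq (GRCm38.p6, which matched 271 of the 300), 5′ to 3′ with the seed in capitals, and were chosen after their values were seen.
let-7c-5p: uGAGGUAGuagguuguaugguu
let-7d-5p: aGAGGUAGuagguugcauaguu
miR-196a-5p: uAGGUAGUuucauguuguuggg
miR-181a-5p: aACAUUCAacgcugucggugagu
miR-384-5p: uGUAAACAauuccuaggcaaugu
Mirlet7c-1 (chr16:77599672-77599693, plus strand) and Mirlet7d (chr13:48536078-48536099, minus strand) carry the same let-7 seed. Mirlet7c-1 was higher by 0.40 ± 0.10 at a dim signal, with 4.62 to 5.28 (median 5.04) on the G2R arrays and 4.21 to 4.94 (median 4.53) on the G1R arrays, and Mirlet7d differed by -0.41 ± 0.12, with 6.36 to 7.10 (median 6.83) on the G2R arrays and 6.95 to 7.33 (median 7.25) on the G1R arrays. The call of Mirlet7c-1 was lost when only the arrays compared were fitted. By line, Mirlet7c-1 passed in the VZ line (0.65, adjusted p = 0.006 in limma) and not in the DEHP line (0.14, adjusted p = 0.571). Mirlet7d passed in the DEHP line (-0.59, adjusted p = 0.0166) and not in the VZ line (-0.22, adjusted p = 0.461). No gene passed the test of a difference between the lines. Of the 9 precursors with that seed 3 were higher, 2 lower and 4 not called, and the calls of Mirlet7a-1, Mirlet7e and Mirlet7i were lost without 5, 8 and 7 of the single arrays (adjusted p up to 0.0902, 0.142 and 0.126). Mir196a-2 (chr15:102973365-102973386, plus strand) was higher by 0.39 ± 0.10, and 2 of 3 precursors with its seed were higher and none lower. Mir181a-2 (chr2:38852741-38852763, plus strand) differed by -0.31 ± 0.09, and 2 of 6 with its seed were lower and none higher. Mir384 (chrX:105344332-105344354, minus strand) differed by -0.25 ± 0.07, and 2 of 5 with its seed, that of the miR-30 family, were lower and none higher. The other calls in these families were lost without some single arrays: Mir196a-1 without 6, Mir181b-2 without 5 and Mir30e without 2 (adjusted p up to 0.0862, 0.0967 and 0.0631). Mir196a-2, Mir181a-2 and Mir384 were dim and their arrays overlapped between generations.

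Each line was also tested alone. The DEHP line had 1476 genes higher (7.4%) and 1611 lower (8.08%), and the VZ line 560 higher (2.81%) and 1029 lower (5.16%). Over all probes 5146 were called in the DEHP line, 3027 without G2R DEHP 1, and 2762 in the VZ line, 1384 to 1591 without G2R VZ 2 or 3 or any of the G1R VZ arrays. The lines share no array. Of the genes called higher 385 were shared, 26.1% of the DEHP list and 68.8% of the VZ list, and of those called lower 754 were shared, 46.8% and 73.3%. Genes called in the DEHP line had the same sign in the VZ line in 97% of cases when higher and in 97.9% when lower, and none was called in opposite directions. Over the 19938 genes, which are not independent replicates, the differences of the lines correlated at r = 0.755 (Spearman's rho 0.721).

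**Figure D5:**
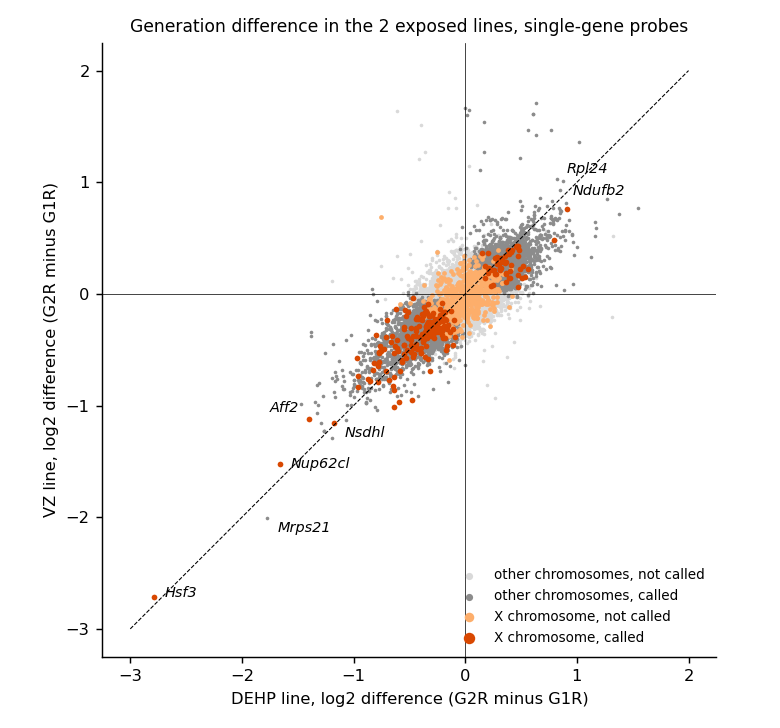
log2 difference (G2R minus G1R) of each single-gene probe in the DEHP line (x axis) and in the VZ line (y axis), with dark points for probes called in both lines together, orange for the X chromosome and a dashed line where the lines are equal. Points follow the dashed line, with Hsf3, Nup62cl, Aff2 and Nsdhl of the X chromosome and Mrps21 at its low end.

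The genes furthest apart between generations in the DEHP line, beyond those above, were Ect2l (1.12 ± 0.18), 2610005L07Rik (1.00 ± 0.16), Parl (0.97 ± 0.14, a rhomboid protease of mitochondria) and Fam135a (0.97 ± 0.16) on the higher side, and 2610318N02Rik (-1.20 ± 0.11), Zic1 (-1.26 ± 0.13, a neural transcription factor) and the dim Pou3f2 (-1.18 ± 0.18) on the lower side. Parl read 10.95, 10.95 and 10.94 on the G2R DEHP arrays, against 10.11, 9.77 and 10.05 on the G1R DEHP arrays. Zic1 read 6.24, 6.29 and 6.51 on the G2R DEHP arrays, against 7.56, 7.59 and 7.66 on the G1R DEHP arrays. In the VZ line Parl and Zic1 differed by 0.35 and -0.53. Cst9 (1.31 ± 0.44, adjusted p = 0.046) lost its call whichever of the 6 arrays was left out (adjusted p 0.0557 to 0.146), H3c15 (-1.35 ± 0.35) without G2R DEHP 1 (0.074), and Snora3 (-1.38 ± 0.36) without G1R DEHP 1 or G2R DEHP 1 (up to 0.0788) and when only the arrays compared were fitted.

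In the VZ line small nucleolar RNAs, which act in the modification or the processing of ribosomal RNA, and a host gene of such RNAs led the higher genes: Snord87 (1.71 ± 0.36), Snora73a (1.66 ± 0.37), Snora73b (1.60 ± 0.35), Snord118 (1.61 ± 0.50) and the host gene Snhg17 (1.65 ± 0.42). Snora73a read 10.44, 11.80 and 11.66 on the G2R VZ arrays, against 9.52, 10.12 and 9.26 on the G1R VZ arrays, and 10.66, 11.50 and 11.09 on the G2R DEHP arrays, against 11.32, 11.78 and 10.17 on the G1R DEHP arrays. The G2R VZ arrays of Snora73a spread over more than a log2 unit. Of 54 small nucleolar RNAs none was free of overlap between the 6 G2R and 6 G1R arrays, beside 11.4% of all genes. Of the 54, 17 were higher and 1 lower in the VZ line, beside 2.81% and 5.16% of all genes. In the DEHP line 0 were higher and 4 lower, beside 7.4% and 8.08%. In the oil line 0 were higher and 12 lower, beside 5.95% and 4.87%. In both lines together 15 were higher (27.8%) and 4 lower (7.41%), beside 12.7% and 14.2% of all genes. Without G1R DEHP 3 or G2R VZ 3, 8 were higher. All 5 RNAs named lost their call in the VZ line when only the arrays compared were fitted. Snord118 and Snhg17 lost their calls without G1R VZ 1, G1R VZ 3, G2R VZ 2 or G2R VZ 3 (adjusted p up to 0.229 and 0.116). The lower genes of the VZ line were Tecrl (-1.04 ± 0.20), Krt24 (-1.01 ± 0.13), the X-linked Vsig4 (-1.01 ± 0.19), the translation factor gene Eif5a (-0.99 ± 0.13) and Cdc42ep5 (-0.99 ± 0.18). Eif5a read 11.24, 11.19 and 11.36 on the G2R VZ arrays, against 12.38, 11.98 and 12.41 on the G1R VZ arrays, and the DEHP line gave -1.03.

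The difference between the lines was tested as the VZ minus the DEHP difference. No gene passed (0%), with 1258 of 35556 probes at an unadjusted p under 0.05 in limma. The genes with the smallest p, all of which missed the test, were Zgrf1 (-0.46 ± 0.10), Mpv17l2 (0.54 ± 0.12), Galnt13 (0.52 ± 0.12), Snora16a (1.63 ± 0.38) and Dhcr7 (-0.48 ± 0.12), the last enzyme of cholesterol synthesis. Dhcr7 read 8.96, 8.90 and 8.79 on the G2R VZ arrays, against 9.32, 9.29 and 9.15 on the G1R VZ arrays, and 9.11, 9.10 and 9.07 on the G2R DEHP arrays, against 8.96, 8.99 and 8.98 on the G1R DEHP arrays.

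The oil line, with the same change of cross and run but no compound, had 1186 genes higher (5.95%) and 970 lower (4.87%). Of the genes higher in the exposed lines 700 were called in the oil line, 27.7% of the exposed list and 59% of the oil list, and of those lower 376 (13.3% and 38.8%). The same sign in the oil line was seen for 83.3% of the genes called higher and for 76.6% of those called lower, with 5 and 14 called in the opposite direction. Over 19938 genes the differences of the exposed and the oil line correlated at r = 0.457. The exposed minus the oil difference passed for 79 probes and for 45 genes (0.226%), 10 of them higher and 35 lower, with 6500 probes at an unadjusted p under 0.05. None of the probes passed when only the arrays compared, or only male arrays, were fitted, and the count was 0 to 1167 as single arrays were left out (0 without G1R DEHP 2, 1167 without G2R DEHP 2).

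Selenoh (0.81 ± 0.15) headed the higher genes of that term. Its call and those of the genes below were each lost in 10 to 14 of the 18 fits that left out an array, with adjusted p up to 0.189. Igf2bp3, an RNA-binding protein of fetal tissue, stood at -0.65 ± 0.12. In the exposed lines it read 8.70 to 9.08 (median 8.97) on the G2R arrays and 9.62 to 9.90 (median 9.68) on the G1R arrays, and in the oil line 9.11, 9.28 and 9.19 on the G2R oil arrays, against 9.37, 9.23 and 9.43 on the G1R oil arrays. Prkaa2, a catalytic subunit of AMP-activated kinase, stood at -0.69 ± 0.14. In the exposed lines it read 8.78 to 9.03 (median 8.91) on the G2R arrays and 9.43 to 9.71 (median 9.51) on the G1R arrays, and in the oil line 9.28, 9.32 and 9.29 on the G2R oil arrays, against 9.07, 9.29 and 9.31 on the G1R oil arrays. Psat1, of serine synthesis, stood at -0.70 ± 0.13, with a difference of -0.46 in the exposed lines and 0.24 in the oil line. For these 3 genes the exposed lines were lower in G2R and the oil arrays overlapped. Hmgn2, a nucleosome-binding protein, differed by -0.01 in the exposed lines and -0.79 in the oil line, with a term of 0.79 ± 0.17.

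Markers of other gonadal cells were read as a check of the sort. Their counts stand beside 12.7% higher and 14.2% lower over all genes. The mean signal of 23 Sertoli cell genes lay between 7.48 and 7.83 on the G2R arrays and between 7.49 and 8.12 on the G1R arrays, and none was higher and 5 were lower (21.7%), among them Cldn11 (-0.38 ± 0.08) and Ptgds (-0.55 ± 0.16). That of 11 fetal Leydig cell genes lay between 7.30 and 8.30 on the G2R arrays and between 7.26 and 7.61 on the G1R arrays, with 1 higher and 1 lower. The highest value was that of 1 array, G2R DEHP 2 (8.303), and the other 5 G2R arrays lay between 7.297 and 7.514. G2R DEHP 2 also had the lowest array quality weight in limma of the 12 arrays (0.547), a measure of how closely an array follows the fit. Cyp17a1 differed by 0.92 ± 0.54 without passing (adjusted p = 0.22). Of 18 peritubular and interstitial genes 1 was higher (5.56%) and 4 lower (22.2%), with Des at -0.88 ± 0.10. Their mean signals lay between 8.04 and 8.24 on the G2R arrays and between 8.08 and 8.45 on the G1R arrays. Endothelial genes were higher in 2 and lower in 2 of 15 cases (7.805 to 7.995 on the G2R arrays, 7.762 to 7.885 on the G1R arrays), macrophage genes higher in 1 and lower in 2 of 15 (6.41 to 6.59 on the G2R arrays, 6.43 to 6.59 on the G1R arrays), mast cell genes higher in 1 and lower in 2 of 12 (5.67 to 5.77 on the G2R arrays, 5.62 to 5.87 on the G1R arrays), and red blood cell genes higher in 1 of 11 (6.77 to 6.85 on the G2R arrays, 6.66 to 6.76 on the G1R arrays). Only 3 of 15 macrophage and 3 of 12 mast cell genes had a G2R mean above 6.7. The shares higher and lower were 9.09% each for Leydig, 13.3% each for endothelial, 6.67% and 13.3% for macrophage genes. They were 8.33% and 16.7% for mast cell genes, and 9.09% of red blood cell genes were higher. These shares are near or below those of all genes. The part of these cells in the results above was not tested.

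Hsd17b3, Ehmt2 and Kmt2c, which the study discussed for transcription in germ cells, did not pass the test between generations. Hsd17b3, which makes testosterone, read 7.13, 8.21 and 8.40 on the G2R arrays (lowest, median and highest), against 7.21, 8.20 and 9.33 on the G1R arrays (-0.33 ± 0.30, adjusted p = 0.457). The histone methyltransferase genes Ehmt2 (0.03 ± 0.07, adjusted p = 0.815) and Kmt2c (0.02 ± 0.06, adjusted p = 0.858) differed by at most 0.03. Among 20 genes of androgen and steroid action 1 was higher (5%) and 6 lower (30%), beside 12.7% and 14.2% of all genes. Srd5a3 (-0.45 ± 0.09) and the glucocorticoid receptor gene Nr3c1 (-0.40 ± 0.09) were among the lower.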

How the data were processed

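RNA of EGFP-sorted cells was hybridised to Mouse Gene 1.0 ST arrays, 32 in all. The authors deposited log2 signals after RMA in Partek, whose versions are not given in the sources used here, and these values were used as they stand. They ranged from 2.59 to 14.82. RMA makes arrays alike in distribution, so a change shared by most genes would not show.

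One limma model (3.58.1, R 4.3.3) with a mean for each of the 11 groups was fitted over 35556 probes, with 21 residual degrees of freedom and Benjamini-Hochberg adjustment over all probes, and called at 0.05. Annotation tied 21789 probes to 1 gene (19938 genes), 1621 to several and 12146 to none listed. Symbols of 21698 probes were updated through Entrez and 91 kept. Genes and lists are counted by the brightest probe of each gene over all arrays. Named genes outside the lists are given by the probe with the smallest p. Number of arrays limits the precision.

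Named genes are the 15 highest and 15 lowest among called genes with no overlap and the same direction in both lines, the 5 per direction in each line, up to 10 per direction for the difference from oil, the 5 with the smallest p for VZ minus DEHP, up to 4 per list, the study's genes, and members added after their values were seen. Members and lists were chosen with earlier results of these data known. Sequences are RefSeq's (GRCm38.p6). Alternatives were plain least squares, only the arrays compared, male arrays only, a filter on dim probes (mean under 6.7), single-gene probes, cyclic loess, array weights, a replicate block and leaving out each array.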

Additional observations from a re-analysis of the deposited data

Results flagged for a closer look

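For 45 genes, 10 higher and 35 lower, the generation difference of the exposed lines differed from that of the oil line. The test was of the difference itself, an interaction term in limma (G2R minus G1R, exposed minus oil, log2). Listed here are 20 genes, the 10 largest terms in each direction. The positive terms were Selenoh 0.81, 1700012A03Rik 0.79, Hmgn2 0.79, Dnmt3aos 0.69, Mmp7 0.65, Gm9961 0.65, Tapt1 0.64, Crygf 0.59, Nrl 0.56 and Slc38a8 0.56. The negative terms were Cetn4 -1.07, Zfp229 -1.01, Nup62cl -0.88, Dennd4a -0.76, Ccdc141 -0.72, Cluap1 -0.71, Psat1 -0.7, Prkaa2 -0.69, Zfp654 -0.66 and Igf2bp3 -0.65. For the 20 genes listed, all adjusted p lay between 0.0425 and 0.0499, and each call was lost in 10 to 14 of the 18 fits that left out an array.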

How the results depend on the processing

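The counts of called probes for both exposed lines together stayed within 1.5 times of 9195 under every alternative run, from 6387 (single-gene probes) to 9632 (cyclic loess), and from 7857 to 9146 without single arrays. Fitting only the arrays compared gave 957 in the DEHP line, 397 in the VZ line, 586 in the oil line and 0 for exposed minus oil. Exposed minus oil was 79 probes, and 0 with male arrays only, 191 with the filter on dim probes, 214 with single-gene probes and 606 with array weights, which gave 5520 in the oil line. Without single arrays the DEHP line gave 3027 to 4832, the VZ line 1384 to 2817, the oil line 1461 to 3262, exposed minus oil 0 to 1167 and VZ minus DEHP 0. The cause of these moves was not tested.

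Replicate numbers did not pair G2R with G1R arrays of the same line. Of 6 such pairs of same-numbered exposed arrays, 0 had deviations that correlated over 0.1 (-0.0714 to 0.0438). Pairing by number between lines within a generation was not tested. With a replicate block both lines gave 8984, the DEHP line 4984, the VZ line 2512, the oil line 3361, VZ minus DEHP 0 and exposed minus oil 1.

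For the 217 named genes called on the mean of both lines, 1684 of 1711 fits under other settings kept the call and the direction. Without an array 2482 of 2604 fits did so. Most of these genes were named for large differences or small p in this same fit. Calls kept by them therefore do not measure how stable other calls are. Kmt2c, which missed the test, ranged from -0.0128 to 0.0643 without single arrays, with -0.0028 without G1R DEHP 1, -0.0128 without G1R VZ 3 and -0.0107 without G2R VZ 1. Probe signals below 6.7 limit what dim genes can show.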
